A study of Mus musculus with 4 samples.

Results

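SUMO pathway genes were followed in 2-cell mouse embryos cultured with or without dimethyl sulfoxide (DMSO), a common solvent. The 8 genes were picked by symbol and are Sumo2, Sumo3, Sae1, Uba2, Pias1, Pias2, Senp1 and Senp6. All 8 were found by Ensembl identifier among the 30049 genes of the deposited table, and all 8 had a mean of at least 1 TPM. TPM (transcripts per unit of all transcripts in a library) corrects the reads of a gene for its length and for the size of the library, so levels of different genes can be compared. The total of the deposited values was not the same in each library, at 768174 and 780527 for controls and 772487 and 799166 under DMSO. The embryos were wild type, from BDF1 parents (a cross of C57BL/6 and DBA/2), and were put into culture as zygotes 18 h after human chorionic gonadotropin. Culture lasted 24 h in KSOM medium, with no addition in the control group and with 2% DMSO in the treated group. There were 2 libraries of control embryos and 2 libraries of DMSO-treated embryos, with 50 embryos pooled for each group. Whether a library held all 50, and whether libraries came from separate collections, is not stated in the sources used here, so the p-values measure the spread between libraries, which may be technical.

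SUMO is a small protein that is joined to lysines of other proteins in the same way as ubiquitin. A precursor is trimmed by a SENP protease to expose a pair of glycines, is activated by an enzyme made of SAE1 and UBA2, and then reaches its target in a conjugation step, often with the help of a ligase such as a PIAS protein. SENP proteases also remove SUMO again, and SENP6 prefers chains of SUMO2 and SUMO3. In oocytes and early embryos SUMO is known for roles in chromatin, spindle formation and the silencing of repeats.

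The 60 coding bases of Sumo2 and Sumo3 that end with the diglycine codons, the place where SENP proteases trim the precursor, show how close these modifiers are and are printed from GENCODE M21 (build GRCm38) with these codons in capitals. Each stretch lies in 2 exons. For Sumo2 it runs within chr11:115523716-115530351 on the minus strand and for Sumo3 within chr10:77614046-77616201 on the plus strand.
Sumo2: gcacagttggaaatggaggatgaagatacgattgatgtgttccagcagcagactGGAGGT
Sumo3: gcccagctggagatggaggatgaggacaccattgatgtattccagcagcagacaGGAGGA
They differ at 9 of these 60 bases. After the diglycine codons 2 further codons follow in Sumo2 and 18 in Sumo3. No word of 31 bases, the length by which kallisto matches reads to transcripts, is common to these genes. Sumo2 does share words with processed pseudogenes, which are copies of its RNA inserted elsewhere in the genome. Of its words 22.5% occur in transcripts of other genes, against 10.6% for Sumo3, 5.93% for Senp1, 4.68% for Uba2, 2.09% for Senp6, 1.67% for Pias2, 0.849% for Sae1 and 0.0147% for Pias1. Of the 7 pseudogenes with at least 50% of their own words in Sumo2, 6 were compared over the stretch above and 4 held it without a difference. Gm12335 (chr11:75066436-75066762, minus strand) differed at 1 base, given in capitals.
Gm12335: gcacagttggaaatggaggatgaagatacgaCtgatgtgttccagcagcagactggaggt
Together these 7 pseudogenes were listed at 10.2 and 35.5 TPM in controls, against 2.43 and 31.9 TPM under DMSO. Gm10241, all of whose words occur in Sumo2, was listed at 0 in control replicate 1 and DMSO replicate 1 and at 23.8 and 23.4 TPM in control replicate 2 and DMSO replicate 2. Smt3h2-ps4 was at 2.50 and 4.85 TPM in controls, against 0 and 6.06 TPM under DMSO. Gm12335, Gm13430 and Gm10540, the others whose mean reached 1 TPM, were at most 2.61 TPM in any library. These sums are small beside Sumo2 itself, whose values follow.

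In DMSO-treated embryos, RNA of the modifier Sumo2 and of the activating enzyme subunit Sae1 was lower. None of the 8 genes was called higher. The test was limma, a linear model that pools information on the variance across genes, run on log2(TPM + 1), and p-values were adjusted over the 12038 genes whose mean reached 1 TPM. A gene was called at an adjusted p-value under 0.05, and fold changes on this scale understate the change of genes with low values. Among the 8 genes 2 were called lower, while 14.1% of all genes tested were called lower, and 0 were called higher, while 6.42% of all genes tested were. At an unadjusted p-value under 0.05 there were 3, the third being Pias1, beside 4835 of all 12038 genes tested. Both DMSO libraries were below both control libraries for 4 of the 8 genes (Sumo2, Sae1, Uba2 and Senp6) and above them for 1 (Pias1). Over all genes tested this was so for 38.7% and 31.1%. The median log2 fold change of the 8 genes was -0.39, and that of all genes tested was -0.09. With so few genes, these counts do not set the SUMO pathway apart from the other genes.

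**Figure D1:**
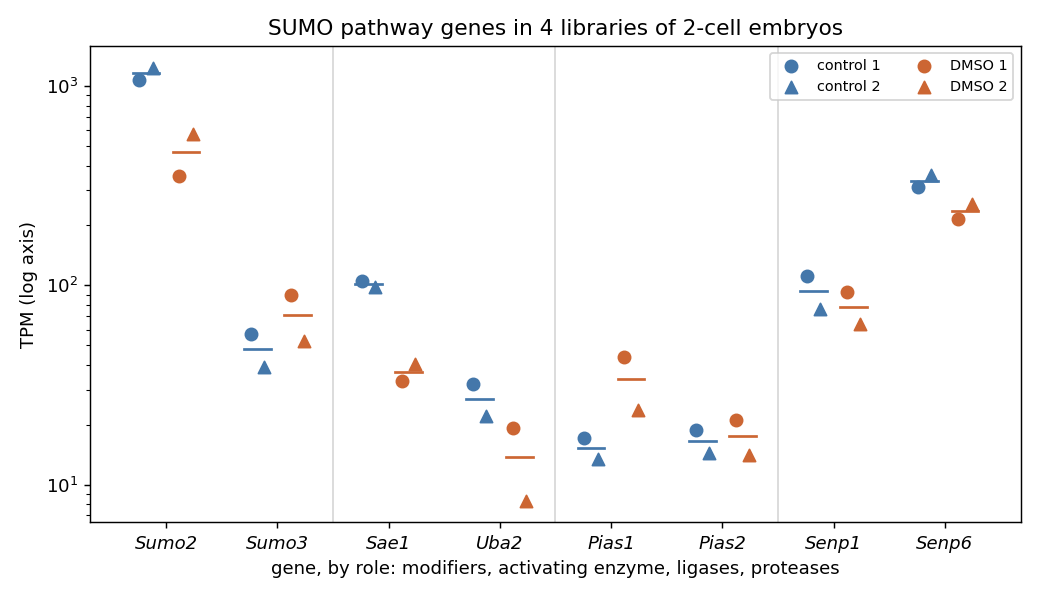
TPM of the 8 genes on a log axis in each library (blue, control; orange, DMSO; circles, replicate 1; triangles, replicate 2; bars, group means), ordered by role. Sumo2 and Sae1 lie clearly lower in both DMSO libraries, whereas the groups overlap for Sumo3, Pias2 and Senp1.

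Sumo2 (ENSMUSG00000020738, chr11:115523102-115536276, minus strand) encodes a modifier that forms chains and is conjugated in response to stress. It was at 1082 and 1242 TPM in controls, against 354 and 579 TPM under DMSO. Both treated libraries were far below both controls. The means were 1162 ± 113 TPM (SD, n = 2) and 467 ± 159 TPM (SD, n = 2). In order of abundance among the genes tested, Sumo2 stood at place 70 and 66 in the control libraries and at place 291 and 159 in the DMSO libraries. The log2 fold change was -1.35 (0.31 standard error, 95% interval -2.09 to -0.62, limma adjusted p = 0.0323). Summed with its 7 pseudogenes, Sumo2 gave a log2 fold change of -1.34 (adjusted p = 0.0357 by limma), with 1092 and 1277 TPM in controls, against 357 and 611 TPM under DMSO. The call was lost without control replicate 1, control replicate 2 or DMSO replicate 1 (limma adjusted p = 0.111, 0.209 and 0.152, with log2 fold changes of -1.45, -1.25 and -0.9996). It was also lost when TPM was rescaled without mitochondrial genes (log2 fold change -1.24, limma adjusted p = 0.0504) and when no filter on low values was used (0.123). The mitochondrial share of the deposited total was 10.8% and 12.4% in controls and 15.3% and 21.7% under DMSO. After the rescaling without these genes the fall of Sumo2 was nearly as large (-1.24 against -1.35). In pooled embryos, fewer cells with the RNA and less RNA per cell cannot be told apart, and TPM is relative to all other RNA of the library.

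Sumo3 (ENSMUSG00000020265, chr10:77606097-77618331, plus strand) encodes a modifier nearly the same as SUMO2 in its mature form. It was at 56.8 and 38.7 TPM in controls, against 89.4 and 52.3 TPM under DMSO. The lower DMSO library fell between the controls, so the groups overlapped. Its log2 fold change was 0.53 (95% interval -0.32 to 1.39, limma adjusted p = 0.293). It was 0.15 without DMSO replicate 1, 0.26 without control replicate 2, 0.80 without control replicate 1 and 0.92 without DMSO replicate 2.

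Sae1 (ENSMUSG00000052833, chr7:16320234-16387806, minus strand) encodes the smaller subunit of the activating enzyme. It was at 105 and 98.1 TPM in controls, against 33.0 and 40.4 TPM under DMSO. The replicates lay close together in each group and the groups were well apart. The means were 101 ± 4.71 TPM (SD, n = 2) and 36.7 ± 5.22 TPM (SD, n = 2), with a log2 fold change of -1.45 (95% interval -2.07 to -0.83, standard error 0.26, adjusted p = 0.0221 by limma). In this fit it had the lowest log2 fold change and the lowest adjusted p-value of the 8 genes. Sae1 was not the lowest with quantile normalization (-1.18, with Sumo2 at -1.33) or without DMSO replicate 1 (-1.31, with Uba2 at -1.56). It was also above Sumo2 without control replicate 1 (-1.40 against -1.45) and without DMSO replicate 2 (-1.59 against -1.71). The call was lost without control replicate 1, control replicate 2 or DMSO replicate 1 (limma adjusted p = 0.102, 0.163 and 0.0923), with log2 fold changes of -1.40, -1.50 and -1.31. It was lost as well without the filter on low values (limma adjusted p = 0.102).

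Uba2 (ENSMUSG00000052997, chr7:34140688-34169599, minus strand) encodes the larger subunit, which carries the catalytic cysteine. It was at 31.8 and 22.1 TPM in controls, against 19.3 and 8.30 TPM under DMSO. Both treated libraries were below both controls, but the gap was narrow and DMSO replicate 1 lay close to control replicate 2. The log2 fold change was -1.002 (standard error 0.44, 95% interval -2.04 to 0.04) and did not pass the test (limma adjusted p = 0.135). It was -0.44 without DMSO replicate 2 and -1.56 without DMSO replicate 1. The interval runs from a fall larger than that of Sae1 to no change.

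Pias1 (ENSMUSG00000032405, chr9:62878368-62987924, minus strand) encodes a SUMO ligase. It was at 17.1 and 13.5 TPM in controls, against 43.8 and 23.8 TPM under DMSO. Both treated libraries were above both controls, and they differed widely from each other. The log2 fold change was 1.04 (0.37 standard error, 95% interval 0.16 to 1.92, limma adjusted p = 0.085), so that it missed the threshold. Without DMSO replicate 2, the lower of the treated libraries, the log2 fold change was 1.47 and Pias1 was called higher (limma adjusted p = 0.0488). Without DMSO replicate 1 it was 0.61 and without control replicate 2 it was 0.88 (limma adjusted p = 0.331 and 0.355). Pias2 (ENSMUSG00000025423), a related ligase, was at 18.8 and 14.4 TPM in controls, against 21.1 and 14.1 TPM under DMSO. Both controls lay within the range of the DMSO libraries, with a log2 fold change of 0.07 (95% interval -0.72 to 0.85, limma adjusted p = 0.891).

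Senp1 (ENSMUSG00000033075, chr15:98038744-98093744, minus strand) encodes a protease that trims SUMO precursors and releases SUMO from targets. It was at 111 and 76.4 TPM in controls, against 92.2 and 63.8 TPM under DMSO. The groups overlapped, and the log2 fold change was -0.26 (95% interval -1.03 to 0.50, limma adjusted p = 0.558). Gm26513, an annotated gene that was not in the table, holds 3.62% of the words of Senp1. Likewise absent from the table, Gm49325 holds 8.46% of the words of Sumo3 and has 65.6% of its own words in common with it. Senp6 (ENSMUSG00000034252, chr9:80066903-80144953, plus strand) encodes the protease that shortens SUMO2 and SUMO3 chains. It was at 311 and 359 TPM in controls, against 214 and 256 TPM under DMSO. Here the treated libraries were below both controls, with a log2 fold change of -0.51 (standard error 0.25, 95% interval -1.11 to 0.09) that did not pass the test (limma adjusted p = 0.173).

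The order of the 8 genes by mean TPM was Sumo2, Senp6, Sae1, Senp1, Sumo3, Uba2, Pias2 and Pias1 in control embryos. Among neighbours in this order, Sae1 and Senp1 overlapped over the libraries, as did Pias2 and Pias1, and the other neighbours did not. In DMSO-treated embryos the order was Sumo2, Senp6, Senp1, Sumo3, Sae1, Pias1, Pias2 and Uba2. There Senp1 and Sumo3, Sae1 and Pias1, and Pias2 and Uba2 overlapped. Sumo2 and Senp6 held the upper places in both groups, while Sae1 went from place 3 to place 5 and Uba2 from place 6 to place 8.

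A TPM ratio of genes within a library does not depend on how libraries are scaled to each other, and 4 pairs with related roles were compared. The differences and the test below use the log2 ratio of TPM + 1, which the added 1 makes depend on scaling to some degree. The TPM ratio of Sumo2 to Sumo3 was 19.0 and 32.1 in controls and 3.96 and 11.1 under DMSO. The groups did not overlap, and the mean log2 ratio (of TPM + 1) was 1.89 lower in DMSO-treated embryos, at 2.71 against 4.597. This difference was -1.15 without DMSO replicate 1 and -2.62 without DMSO replicate 2. For Pias1 to Pias2 the TPM ratio was 0.913 and 0.934 in controls and 2.08 and 1.68 under DMSO. This ratio was nearly the same in the controls and was higher in both DMSO libraries, a difference of 0.97 in the log2 ratio of TPM + 1. For Sae1 to Uba2 it was 3.30 and 4.44 in controls and 1.71 and 4.86 under DMSO, and these overlapped, with DMSO replicate 2 above both controls. For Senp1 to Senp6 it was 0.358 and 0.212 in controls and 0.430 and 0.249 under DMSO, which overlapped too. The exact two-sided permutation test gave p = 0.333 for Sumo2 to Sumo3 and for Pias1 to Pias2 (0.667 after adjustment over the 4 pairs), p = 0.667 for Senp1 to Senp6 (0.889 adjusted) and p = 1 for Sae1 to Uba2. With 2 libraries against 2 this test cannot go below 0.333.

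**Figure D2:**
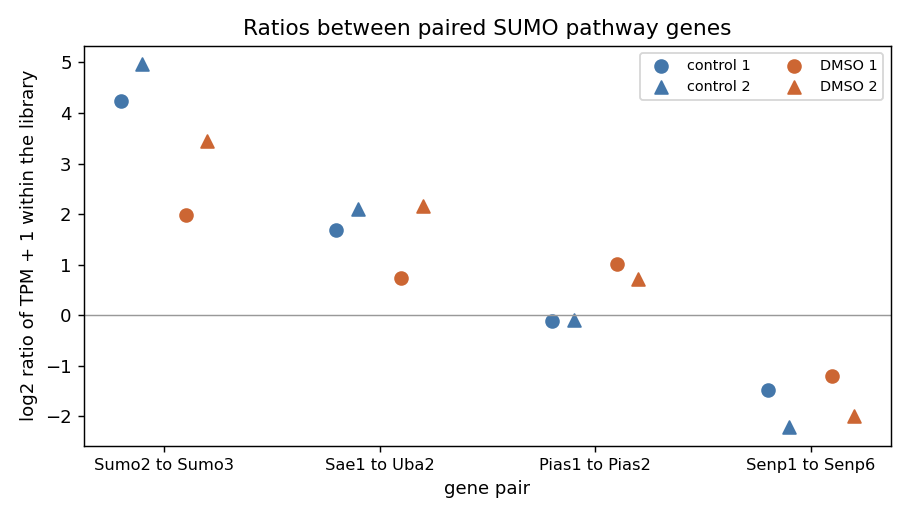
Log2 ratio of TPM + 1 between paired SUMO pathway genes within each library (blue, control; orange, DMSO; circles, replicate 1; triangles, replicate 2). The groups are apart for Sumo2 to Sumo3 and for Pias1 to Pias2, and they overlap for Sae1 to Uba2 and for Senp1 to Senp6.

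Another 17 SUMO pathway genes of a list that was made by role were looked up in the same fit. Of these 16 were tested, while Rnf111 had a mean below 1 TPM. Ranbp2 and Uspl1 were called lower, and 0 genes were called higher, while 14.1% and 6.42% of all genes tested were, so that these counts do not set the list apart. Below 0 were 13 of the 16 log2 fold changes and above 0 were 3, with a median of -0.42, against 6401 of 12038 below 0 and a median of -0.09 for all genes tested. Ranbp2 encodes a nuclear pore protein with SUMO ligase activity. It was at 54.0 and 72.0 TPM in controls, against 16.3 and 26.6 TPM under DMSO, with a log2 fold change of -1.54 (adjusted p = 0.0304 by limma, standard error 0.34). Uspl1 encodes a SUMO protease of Cajal bodies. It was at 93.4 and 94.6 TPM in controls, against 38.0 and 43.0 TPM under DMSO, with a log2 fold change of -1.20 (adjusted p = 0.0284 by limma, standard error 0.25). For both genes the groups were well apart. Both calls were lost without control replicate 1, control replicate 2 or DMSO replicate 1. The log2 fold changes were then -1.74, -1.33 and -1.20 for Ranbp2 and -1.21, -1.19 and -1.11 for Uspl1. With quantile normalization the limma adjusted p-values were 0.0525 for Ranbp2 and 0.0527 for Uspl1 (log2 fold changes of -1.29 and -0.93). Without the filter on low values they were 0.11 and 0.102, with the log2 fold changes unchanged.

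The remaining 14 genes that were tested had log2 fold changes from -0.84 (Senp5) to 0.72 (Topors). The most abundant of them was Trim28, a corepressor with SUMO ligase activity, at 525 and 566 TPM in controls, against 304 and 381 TPM under DMSO. It did not pass the test (log2 fold change -0.68, 95% interval -1.28 to -0.08, limma adjusted p = 0.0934). Rnf4, a ubiquitin ligase that recognises SUMO chains, was at 269 and 414 TPM in controls, against 194 and 223 TPM under DMSO (log2 fold change -0.68, 95% interval -1.39 to 0.02, limma adjusted p = 0.134). Senp3, a nucleolar SUMO protease, was at 220.3 and 243 TPM in controls, against 156 and 206 TPM under DMSO (log2 fold change -0.37, 95% interval -0.996 to 0.26, limma adjusted p = 0.321). Nsmce2, the SUMO ligase of the SMC5/6 complex, was at 194 and 222 TPM in controls, against 153 and 153 TPM under DMSO (log2 fold change -0.44, limma adjusted p = 0.215). For Trim28, Rnf4, Senp3 and Nsmce2 both DMSO libraries were below both control libraries, which held for 10 of the 16 genes and for 38.7% of all genes tested. Both were above both controls for 2 of the 16 (Topors and Desi1) and for 31.1% of all genes tested.

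**Figure D3:**
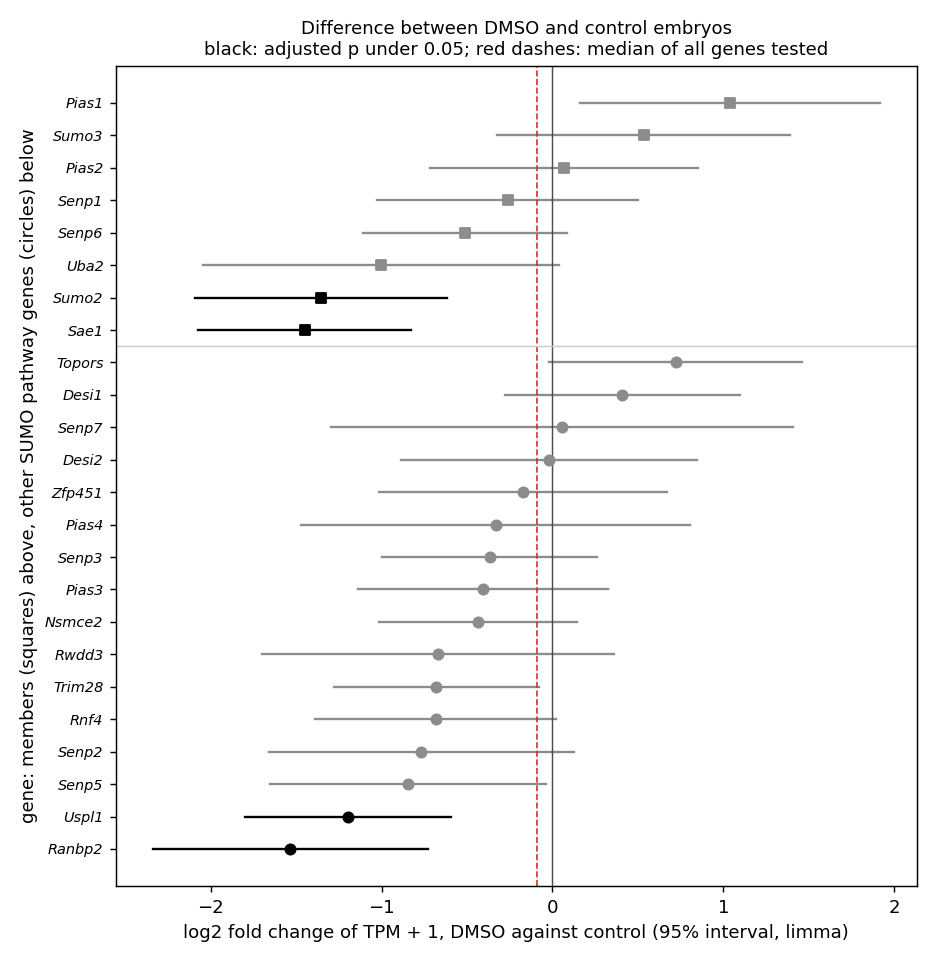
Log2 fold change of TPM + 1 with its 95% interval from limma for the 8 genes (squares) and 16 tested genes of the rest of the pathway (circles). Sae1, Sumo2, Ranbp2 and Uspl1, in black, passed the threshold of 0.05 after adjustment, and the dashed line is the median of all genes tested, -0.09.

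By role, 1 of 9 ligases (Ranbp2) and 1 of 9 proteases (Uspl1) were called lower, counting the 8 genes and the other list together, beside 14.1% of all genes tested. The median log2 fold changes were -0.33 and -0.37 in the same order. Of 4 partner genes, Rangap1, the best known SUMO target at the nuclear pore, had a mean below 1 TPM and was not tested. Pml, Daxx and Sp100, proteins of nuclear bodies that need SUMO, were tested and 0 of them were called. Pml was at 2.43 and 4.09 TPM in controls, against 1.51 and 1.44 TPM under DMSO (log2 fold change -0.76, 95% interval -1.62 to 0.11, limma adjusted p = 0.163). Its log2 fold change was -0.47 without control replicate 2 and -1.04 without control replicate 1. The log2 fold changes of Daxx and Sp100 were -0.19 and -0.06, with limma adjusted p-values of 0.698 and 0.918.

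Other ubiquitin-like systems gave a comparison by counts. Of 17 listed genes 16 were tested, 1 was called lower and 0 were called higher, beside 14.1% and 6.42% of all genes tested, and the median log2 fold change was -0.29, beside -0.09. The called gene was Ufc1, the conjugating enzyme of the UFM1 system, at 46.9 and 49.4 TPM in controls, against 12.7 and 14.2 TPM under DMSO (log2 fold change -1.77, limma adjusted p = 0.0185). Its replicates lay close together and the groups were far apart. The 6 genes of the NEDD8 system had a median of 0.62 in log2 fold change and 0 were called, and the 6 genes of the UFM1 system, Ufc1 included, had a median of -0.48. A difference between these systems and the SUMO genes was not tested.

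Summed markers of oocytes, of the 2-cell stage, of sperm and of later lineages did not overlap between the groups, while those of cumulus cells and blood did. Among single genes tested, both DMSO libraries were below both control libraries for 38.7% and above them for 31.1%. The 8 marker genes of oocytes and zygotes summed to 1106 and 708 TPM in controls, against 2860 and 2206 TPM under DMSO, with Oosp1 the most abundant. Of the 7 that were tested Bmp15 and Oosp1 were called higher, beside 6.42% of all genes tested, Zp3 had a log2 fold change of -0.42, and Nlrp5 was at most 0.142 TPM in any library. Genes activated at the 2-cell stage, 7 of them found, summed to 863 and 625 TPM in controls, against 2406 and 1691 TPM under DMSO, with Tcstv3 the most abundant. Of the 7 that were tested Zfp352, Tcstv1, Tcstv3 and Usp17lc were called higher, beside 6.42% of all genes tested, and Zscan4d had a log2 fold change of -0.05. Markers of the labelled stage were present in all 4 libraries. The 8 cumulus and granulosa markers summed to at most 3.26 TPM in any library, with Cyp11a1 the most abundant and Amh at 0. The 4 sperm markers summed to 2.84 and 3.38 TPM in controls, against 13.4 and 8.48 TPM under DMSO, with Prm2 the most abundant and Tnp2 at 0. Prm2 and Tnp1, the 2 that were tested, were called higher, beside 6.42% of all genes tested. Tnp1 was near 0, at 0.281 and 0 TPM in controls, against 2.08 and 1.69 TPM under DMSO. It reached a mean of 1 TPM only through the DMSO libraries, so the filter favoured its call, which carries no weight. The 4 markers of later lineages summed to 56.1 and 46.1 TPM in controls, against 28.3 and 31.7 TPM under DMSO, nearly all of it Gata4, and the 3 blood markers to at most 4.52 TPM. Their part in the values of the SUMO genes was not tested.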

How the data were processed

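RNA of 2 control and 2 DMSO libraries was measured by sequencing of amplified cDNA. Against Ensembl transcripts of build GRCm38 (mm10) the authors quantified the reads with kallisto, summed them per gene with tximport and deposited TPM values. The submitters' processing notes also name STAR, SAMtools and bedtools. TPM keeps no depth, so the depth per library is unknown and no counting error was derived. No count test was run on these values, and 0 columns of per-sample values were left out.

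Gene names and coordinates were taken from GENCODE M21 on GRCm38, a release other than that of the authors' transcriptome. It named 29668 of 30049 identifiers. Libraries were grouped by their labels. The tool was limma 3.58.1 (R 4.3.3), applied to log2(TPM + 1) of genes whose mean reached 1 TPM (eBayes with a trend, no replicate block, Benjamini-Hochberg adjustment over all genes tested). Tested on simulated data, 159 of 200 genes changed by 2 in log2 among 12038 were recovered, 9 unchanged genes were called, and 0 were called with no gene changed. The SUMO genes tested had smaller log2 fold changes, from -1.54 to 1.04, so the share recovered does not apply to them. Shared words were counted on either strand. Python 3.11.15, pandas 2.3.3 and matplotlib 3.10.9 served for the other steps.

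The members and lists were chosen with earlier results of these data known. Named are the 8 members, the called genes and the most abundant others of the SUMO list, its partners, the called genes of the other systems, and genes with at least 50% of their words in a member and a mean of at least 1 TPM. Of the marker lists other than that of blood, the most abundant gene and the called genes are named. Some markers at or near 0 are named too, as are those of the oocyte and 2-cell lists with a log2 fold change below 0. These were also named after their values were seen. Named outside this rule, after their values were seen, are Senp5, Topors, Desi1, Rnf111, Gm26513 and Gm49325. Some planned genes and the results that need them are not reported here. Alternatives were another pseudocount (0.1), no trend in eBayes, a filter at 5 TPM or none, 3 other scalings, the replicate block, sums with sequence-sharing genes, and each library left out. Protein sequences were not used here, and so the planned protein identities are not given.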

Additional observations from a re-analysis of the deposited data

How the results depend on the processing

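The log2 fold changes of Sumo2, Sae1, Ranbp2 and Uspl1 stayed below 0 under all alternatives run, and their calls were lost without control replicate 1, control replicate 2 or DMSO replicate 1. With 2 libraries a group the model has 2 residual degrees of freedom, and 1 with a library left out. By limma 1697 genes were called lower and 773 higher. Leaving out 1 library gave 0 to 1276 lower and 0 to 607 higher, 0 to 2 SUMO members lower and 0 to 1 higher, and 0 to 2 of the other SUMO genes lower and 0 higher. The counts of 0 came without control replicate 1, control replicate 2 or DMSO replicate 1, when 2028, 1883 and 2156 genes were lower and 1717, 719 and 922 higher at an unadjusted p-value under 0.05. With no filter on low values, 22257 genes were tested and 0 were called in either direction, with 3244 lower and 2124 higher at an unadjusted p-value under 0.05. No other tool was run.

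Scaling moved the split of calls. It was 1363 lower and 871 higher with median-ratio scaling, 1121 and 1076 with quantile normalization and 1232 and 952 with TPM rescaled without mitochondrial genes. In that last setting 1 SUMO member was called lower (Sae1), with Sumo2 at -1.24 against -1.35 and an adjusted p of 0.0504 by limma. With quantile normalization 0 of the other SUMO genes were, with Ranbp2 at -1.29 against -1.54 (0.0525) and Uspl1 at -0.93 against -1.20 (0.0527).

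With the replicate block 2981 genes (24.8%) were called lower and 2151 (17.9%) higher, among them 4 members lower (Sumo2, Sae1, Uba2 and Senp6) and 1 higher (Pias1), and 4 of the other SUMO genes lower (Ranbp2, Uspl1, Trim28 and Rnf4) and 1 higher (Topors). Of the 16 tested genes of other ubiquitin-like systems it called 4 lower and 4 higher. Among these, the NEDD8 system had 1 lower and 3 higher. Around the group means, libraries with the same number deviated together at r = 0.35 across genes. Nothing in the labels ties them to a shared collection, so whether they share more than a number is not known.

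The sign turned for genes with small changes. Quantile normalization gave log2 fold changes of 0.026 for Senp1 and 0.049 for Daxx, and rescaling without mitochondrial genes 0.017 for Sp100. With 1 library left out, the log2 fold changes ranged from -0.21 to 0.34 for Pias2, -0.53 to 0.0067 for Senp1, -0.56 to 0.19 for Daxx and -0.31 to 0.20 for Sp100. The difference in log2 ratio ranged from -1.15 to 0.26 for Sae1 to Uba2 and from -0.14 to 0.64 for Senp1 to Senp6.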
